A study of Mus musculus with 6 samples.

Results

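The synaptonemal complex and its HORMA-domain partners were followed here as 10 genes: Sycp1, Sycp2, Sycp3, Syce1, Syce2, Syce3, Tex12, Hormad1, Hormad2 and Trip13. They were found by their symbols among the 24411 genes of the deposited tables, and all 10 were present. The samples were whole testes from mice of the inbred strain C57BL/6, and their RNA was sequenced. Of the 6 libraries, 3 carried the genotype label MRP5-/- and MRP9-/- (the double knockout, called labelled DKO here) and 3 the label Wildtype (called labelled WT). MRP5 and MRP9 are membrane transporters of the ABCC family, encoded by Abcc5 and Abcc12. The mice were age matched, but their ages and the design of the deleted alleles are not given in the sources used here. No treatment is named. Whole testis holds germ cells of every stage together with somatic cells. Fewer cells of a type and less RNA per cell therefore cannot be told apart in any value below.

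The synaptonemal complex is the protein zipper that holds homologous chromosomes together along their length during meiotic prophase. Each homologue is folded along an axis that contains SYCP2 and SYCP3. SYCP1 filaments bridge from the axes to a central element of SYCE1, SYCE2, SYCE3, TEX12 and SIX6OS1. HORMAD1 and HORMAD2 sit on axes that have not yet synapsed, where HORMAD1 promotes DNA break formation and both mark unsynapsed chromatin. The ATPase TRIP13 removes them once synapsis is complete. In the testis these genes act in primary spermatocytes, and male mice lacking SYCP1, SYCP3, a central element protein or HORMAD1 are infertile.

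The libraries labelled DKO held 42673615 to 67131103 expected counts and those labelled WT held 26753721 to 31745969. The mean length of the sequenced fragments was 275.5 to 317.4 bases in libraries labelled DKO and 230.4 to 257.9 bases in those labelled WT, so neither quantity overlapped between the groups. The labels give no preparation batch, and fragment length and genotype cannot be told apart by group. Abcc12 was lower in libraries labelled DKO, at 79.0 ± 5.56 against 160.3 ± 3.93 CPM (counts of a gene scaled to the normalized library size; SD, n = 3 each). The edgeR quasi-likelihood test gave a log2 fold change of -1.02 with SE 0.0739 (adjusted p = 0.000307). Abcc5 was higher there, at 16.8 ± 0.190 against 11.4 ± 0.898 CPM (edgeR log2 fold change 0.56, SE 0.0896, adjusted p = 0.0225). These counts are totals per gene and do not show which exons are present. Because the design of the alleles is not given, neither level tests the genotype label. Groups are named by their labels throughout. Labels do not say whether the libraries of a group are separate animals beyond their separate titles, and the p-values measure only the spread between these libraries.

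The sequences below are the 250 bases before the transcription start of the 3 members that were higher and the 1 that was lower in libraries labelled DKO (RefSeq, GRCm38.p6, written 5′ to 3′ on the strand of the gene). They lie at chr10:88459337-88459586 (Sycp3, plus strand), chr9:50561269-50561518 (Tex12, minus strand), chr3:95559427-95559676 (Hormad1, plus strand, the first of its listed starts) and chr15:89410504-89410753 (Syce3, minus strand, the first of its listed starts). Capitals mark matches to 2 consensus motifs (the last ones in Tex12 are the part of a match that lies before the start), and the Syce3 window is shown because it holds none of the motifs searched.
Sycp3: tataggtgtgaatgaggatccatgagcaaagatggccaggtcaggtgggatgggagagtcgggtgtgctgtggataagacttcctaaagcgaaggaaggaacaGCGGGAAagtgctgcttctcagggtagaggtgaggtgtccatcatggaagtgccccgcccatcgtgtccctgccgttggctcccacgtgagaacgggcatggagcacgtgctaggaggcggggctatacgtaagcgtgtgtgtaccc
Tex12: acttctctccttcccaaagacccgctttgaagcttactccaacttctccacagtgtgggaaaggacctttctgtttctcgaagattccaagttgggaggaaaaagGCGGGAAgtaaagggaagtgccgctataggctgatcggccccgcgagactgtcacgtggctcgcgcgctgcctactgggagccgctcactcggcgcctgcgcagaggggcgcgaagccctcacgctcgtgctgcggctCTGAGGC
Hormad1: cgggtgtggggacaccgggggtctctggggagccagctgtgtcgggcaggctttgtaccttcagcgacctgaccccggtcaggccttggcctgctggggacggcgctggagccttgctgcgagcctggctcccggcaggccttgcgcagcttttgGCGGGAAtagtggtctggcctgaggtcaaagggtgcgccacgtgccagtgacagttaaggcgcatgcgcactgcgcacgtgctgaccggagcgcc
Syce3: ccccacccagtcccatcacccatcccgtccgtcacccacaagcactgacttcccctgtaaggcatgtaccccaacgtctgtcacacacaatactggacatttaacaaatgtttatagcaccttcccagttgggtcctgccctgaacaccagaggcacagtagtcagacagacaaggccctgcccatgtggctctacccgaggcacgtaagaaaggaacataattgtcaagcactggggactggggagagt

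Promoter windows of 300 bases (250 before the start and 50 after it) were found for all 10 members and were searched on both strands for 4 motifs. The E2F letters TTCCCGC, read here on the opposite strand as GCGGGAA, were present in Sycp3, Tex12, Hormad1 and Syce2, which is 4 of 10 members against 5.29% of 27025 genes in the table. In the sequences above the match begins 147 bases before the start in Sycp3, 145 in Tex12 and 95 in Hormad1. The letters CNCCTCAG, bound by the meiotic inducer STRA8, were present in Sycp1, Syce2, Tex12 and Hormad2 (4 of 10, against 9.12% of genes), always on the opposite strand. In Tex12 that match begins 7 bases before the start and runs 1 base past it. The matches to both motifs overlap in Syce2. The MYB letters AACNGTT occurred in Sycp1 alone among the members (5.01% of genes), beginning 35 bases before its start. The cAMP response element TGACGTCA occurred in none of the members' windows (2.03% of genes). A match is a run of letters and not a measured binding site.

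At the level of transcripts, Sycp3, Tex12 and Hormad1 were higher and Syce3 was lower in libraries labelled DKO. The remaining 6 members did not pass the test. Sycp3, the axis core protein, rose by 59.4% and Syce3, a central element protein, was at 0.736 times the level in libraries labelled WT. With an offset for effective length Syce3 stood at 0.899 times and did not pass (edgeR adjusted p = 0.306), and with length and GC trends removed the rise of Sycp3 was 27.5%. In all, 4 of 10 members passed an adjusted p of 0.05 (edgeR quasi-likelihood test, Benjamini-Hochberg over 17110 tested genes), beside 10.8% of all tested genes. By direction, 3 members were higher, beside 5.75% of genes, and 1 was lower, beside 5.1%. The median log2 fold change of the 10 members was 0.29, against -0.0042 for all tested genes, and 9 of 10 were above 0, against 49.3% of all genes. All 10 members passed the filter on low counts, and none of their deposited counts was fractional.

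The number of members called changed when 1 library was left out, and so did the share of all genes called. Whether a single library or the smaller number of libraries lay behind the change was not tested. DESeq2 called 4 members (Sycp2, Sycp3, Syce3 and Tex12), beside 17.2% of all tested genes. In edgeR fits without 1 library, 0 members passed without the first library labelled DKO (beside 0.0643% of genes), the second labelled WT (0.0747%) or the third labelled WT (0.0402%). At an unadjusted p under 0.05, the members in these fits were 5, 6 and 6. All tested genes under it were 3571 of 17097, 3793 of 17403 and 4326 of 17431. Sycp3 and Syce3 passed without the second labelled DKO (beside 3.83% of genes) and without the first labelled WT (beside 11.7%). Without the third library labelled DKO 6 members passed, beside 17.7% of genes, with Sycp1 at 0.75 (adjusted p = 0.00769) and Sycp2 at 0.56 (adjusted p = 0.00823) added to the 4. Sycp3 was above 0 in all 6 such fits (0.52 to 0.77) and passed in 3, with adjusted p = 0.0980, 0.0754 and 0.0993 in the others (without the first labelled DKO, the second labelled WT and the third labelled WT). Syce3 was below 0 in all 6 (-0.49 to -0.38) and passed in 3, with adjusted p = 0.1005, 0.0669 and 0.0993 in the same others. Tex12 (0.37 to 0.62) and Hormad1 (0.32 to 0.71) each passed in 1, without the third library labelled DKO.

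**Figure D1:**
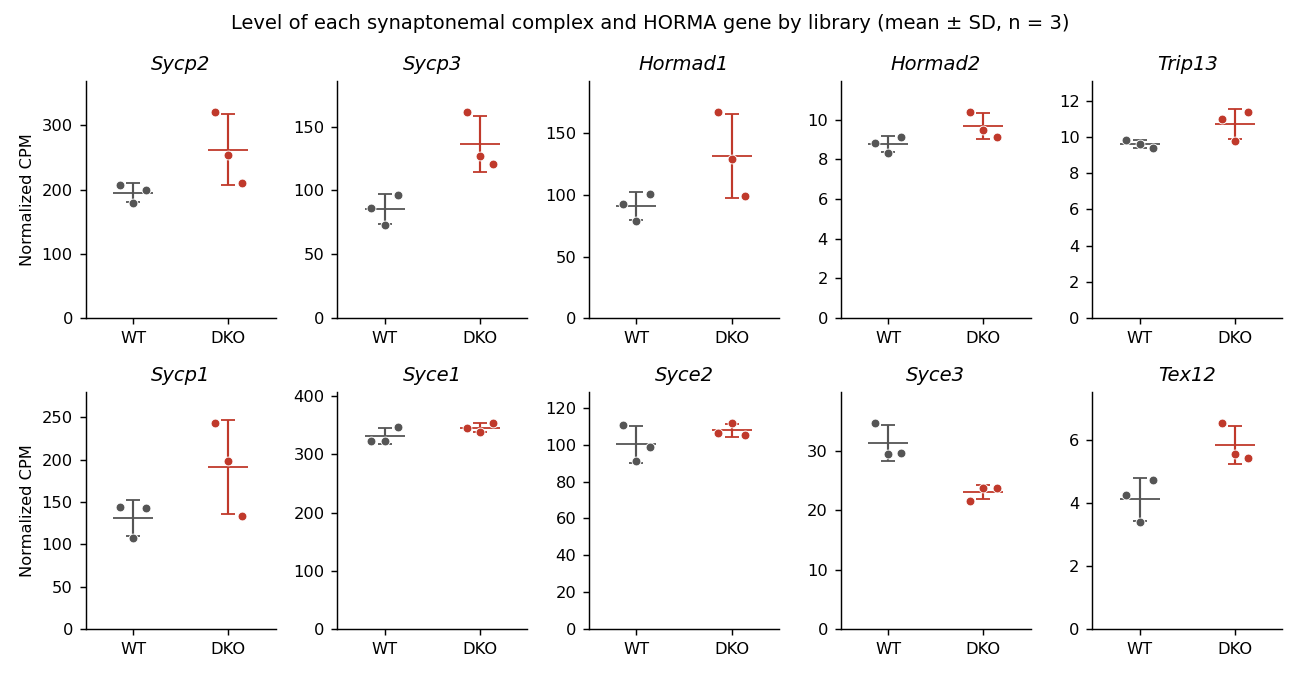
Normalized CPM of each member in each library, with the mean ± SD of 3 libraries per group on axes that start at 0. Sycp3, Sycp2 and Tex12 sit higher in every library labelled DKO than in any labelled WT, and Syce3 sits lower.

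Among the axis genes, Sycp3 (chr10:88459587-88473236, plus strand, GRCm38) had 161, 127 and 120.5 CPM in the 3 libraries labelled DKO and 86.5, 73.1 and 96.5 CPM in those labelled WT, in replicate order. Every library labelled DKO was above every one labelled WT. The means were 136 ± 22.1 and 85.4 ± 11.7 CPM (SD, n = 3 each). In edgeR this was a log2 fold change of 0.67 (SE 0.122, adjusted p = 0.0237). SYCP3 forms the fibres of the lateral element, to which the rest of the complex attaches. In GENCODE M21, the model that carries the counted Sycp3 accession shares 535 of its 1139 exonic bases with Chpt1 on the opposite strand (the deposited Sycp3 length is 1122 bases). Chpt1 is a phospholipid synthesis gene, named here after its overlap was seen. Strand handling is not given in the sources used here, so reads from the shared bases cannot be told apart by strand. The Sycp3 counts were whole in all 6 libraries, as were those of the other members. The part of Chpt1 reads in the Sycp3 counts was not tested. Chpt1 had 91.3 to 119 CPM in libraries labelled DKO and 86.6 to 104 CPM in those labelled WT (edgeR log2 fold change 0.18, SE 0.106, adjusted p = 0.255). No other member overlaps exons of another annotated gene.

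Sycp2 (chr2:178345295-178407776, minus strand) encodes the large partner that anchors SYCP3 to the axis. Its level was 321, 254 and 211 CPM in libraries labelled DKO and 207, 179 and 199 CPM in those labelled WT. The groups did not overlap, although the lowest value of the first (210.9) and the highest of the second (207.4) were close. Means of 262 ± 55.2 and 195 ± 14.3 CPM gave a log2 fold change of 0.42 (SE 0.127), which missed the threshold (edgeR adjusted p = 0.0529).

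Hormad1 (chr3:95559677-95587863, plus strand) encodes the HORMA-domain protein needed for normal break numbers and synapsis. It had 167, 129 and 99.3 CPM in libraries labelled DKO and 93.0, 78.4 and 100.7 CPM in those labelled WT. The groups overlapped, because the third library labelled DKO fell below the third labelled WT. Hormad1 still passed the test at a log2 fold change of 0.54 (edgeR, SE 0.157, adjusted p = 0.0498; 132 ± 34.0 against 90.7 ± 11.3 CPM), just inside the threshold. Its paralogue Hormad2 (chr11:4345801-4441198, minus strand) recruits the checkpoint kinase ATR to unsynapsed axes. Hormad2 had 10.4, 9.47 and 9.10 CPM in libraries labelled DKO and 8.84, 8.33 and 9.11 CPM in those labelled WT, with overlapping groups (edgeR log2 fold change 0.14, SE 0.0973, adjusted p = 0.353). Trip13 (chr13:73912450-73937795, minus strand), which strips both HORMA proteins from synapsed axes, had 11.003, 9.748 and 11.369 CPM in libraries labelled DKO. In libraries labelled WT it had 9.827, 9.581 and 9.404 CPM. The groups overlapped and the difference did not pass the test (edgeR log2 fold change 0.16, SE 0.0961, adjusted p = 0.278).

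The transverse filament gene Sycp1 (chr3:102818499-102936100, minus strand) had the largest SE of the 10 members. Its libraries labelled DKO stood at 244, 198 and 133 CPM and those labelled WT at 144, 107 and 143 CPM. The third library labelled DKO lay inside the range of the other group. The log2 fold change of 0.55 (SE 0.182) was as large as that of Hormad1, but did not pass the test (edgeR adjusted p = 0.0691; 192 ± 55.5 against 131 ± 21.0 CPM).

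Among the central element genes, 1 was called lower, 1 higher and 2 did not pass, and no difference between them was tested. With an offset for effective length Syce3 did not pass (log2 fold change -0.15, edgeR adjusted p = 0.306). With length and GC trends removed none of the 4 passed in edgeR (Syce1 0.07, Syce2 0.21, Syce3 -0.10 and Tex12 0.25), while DESeq2 on the counts called Syce3 and Tex12. Syce3 (chr15:89390174-89410503, minus strand), which links SYCP1 to the rest of the central element, had 21.6, 23.7 and 23.7 CPM in libraries labelled DKO and 34.8, 29.5 and 29.7 CPM in those labelled WT. All libraries labelled DKO were below all labelled WT, and the means were 23.0 ± 1.22 and 31.3 ± 2.97 CPM (edgeR log2 fold change -0.44, SE 0.0883, adjusted p = 0.0263). Tex12 (chr9:50557148-50561268, minus strand), which assembles with SYCE2 into the fibres that extend synapsis, was scarce. It had 6.54, 5.54 and 5.42 CPM in libraries labelled DKO and 4.25, 3.37 and 4.72 CPM in those labelled WT, with no overlap (5.83 ± 0.612 against 4.11 ± 0.683 CPM; edgeR log2 fold change 0.50, SE 0.145, adjusted p = 0.0491). Its counts were 112 to 366 per library, the fewest of the 10 members. Syce1 (chr7:140777229-140787854, minus strand), a scaffold of the central element, had 345, 339 and 355 CPM in libraries labelled DKO and 324, 323 and 348 CPM in those labelled WT. Syce2 (chr8:84872111-84887446, plus strand), the partner of TEX12, had 106.5, 112 and 105 CPM in libraries labelled DKO and 111, 90.9 and 98.9 CPM in those labelled WT. Both overlapped between groups, with log2 fold changes of 0.06 (edgeR, SE 0.0679, adjusted p = 0.556) for Syce1 and 0.11 (edgeR, SE 0.0814, adjusted p = 0.390) for Syce2. In CPM, 3 members lay above in every library labelled DKO (beside 18.4% of all tested genes), 1 lay below (beside 17.5%) and 6 overlapped; 35.9% of all tested genes did not overlap.

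TPM values, which divide the counts by the effective length of a transcript and scale every library to the same total, allow levels to be set between genes. In libraries labelled WT, Syce1 was the most abundant member at 410 ± 21.4 TPM (SD, n = 3, as for each value of this order). Syce2 at 229.5 ± 17.1 and Syce3 at 219 ± 21.7 TPM followed, and their libraries overlapped. Then came Sycp3 at 146 ± 17.6, Hormad1 at 96.4 ± 9.99, Sycp1 at 61.8 ± 7.70 and Sycp2 at 54.0 ± 1.58 TPM, of which Sycp1 and Sycp2 overlapped. Tex12 at 16.5 ± 2.60, Hormad2 at 12.0 ± 0.386 and Trip13 at 7.16 ± 0.262 TPM were the scarcest. The central element partners SYCE2 and TEX12 thus came from transcripts of unequal level. Syce2 stood at 14.1 ± 1.88 times the TPM of Tex12 in libraries labelled WT and 10.1 ± 1.35 times in those labelled DKO (two-sided exact permutation p = 0.1, and 3 against 3 libraries allow no smaller value).

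In libraries labelled DKO the order of the means was Syce1 at 421 ± 23.4, Syce2 at 254 ± 2.48, Sycp3 at 234 ± 40.6, Syce3 at 191 ± 8.24 and Hormad1 at 137 ± 34.4 TPM. Sycp1 at 86.3 ± 23.3, Sycp2 at 68.8 ± 13.2, Tex12 at 25.5 ± 3.96, Hormad2 at 13.1 ± 0.957 and Trip13 at 7.73 ± 0.863 TPM followed. Neighbours whose libraries overlapped were Syce2 and Sycp3, Hormad1 and Sycp1, and Sycp1 and Sycp2. In TPM, Sycp3 and Syce3 thus changed places. Sycp3 had 281, 209 and 212 TPM in libraries labelled DKO and 144, 130 and 165 TPM in those labelled WT. Syce3 had 196, 182 and 197 TPM against 244, 206 and 207 TPM. With length and GC trends removed, Sycp3 stood at 1.28 times and Syce3 at 0.935 times the level in libraries labelled WT. Whether their order changes under that scaling was not tested. The 10 members summed to 1365 to 1574 TPM in libraries labelled DKO and 1192 to 1294 TPM in those labelled WT. Of this sum Sycp3 made up 16.2 ± 1.43% against 11.7 ± 0.966%, Syce3 13.3 ± 0.915% against 17.5 ± 1.59% and Tex12 1.77 ± 0.125% against 1.32 ± 0.154%. None of these shares overlapped between groups (two-sided exact permutation p = 0.1 for each, the lowest possible; 10 shares and 5 ratios were computed, and none can pass a threshold after adjustment). Within the axis, Sycp3 stood at 3.41 ± 0.217 times the TPM of Sycp2 in libraries labelled DKO and 2.71 ± 0.270 times in those labelled WT (exact permutation p = 0.1). Hormad1 stood at 10.4 ± 1.95 times the TPM of Hormad2 in libraries labelled DKO and 8.01 ± 0.638 times in those labelled WT, with overlap (exact permutation p = 0.2). In TPM, 4 members (Sycp2, Sycp3, Tex12 and Syce2) lay above in every library labelled DKO (beside 15.0% of all tested genes), 1 (Syce3) lay below (beside 18.2%) and 5 overlapped; 33.2% of all tested genes did not overlap.

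Isoforms were visible only through the deposited length, an average over the transcripts of a gene weighted by their estimated abundance. This length was fixed for the 7 members with 1 counted transcript. Syce2, with 4 transcripts, had an average length of 897.6 ± 0.461 bases in libraries labelled DKO and 901.2 ± 1.41 bases in those labelled WT, without overlap (two-sided exact permutation p = 0.1). Lengths of the groups did not overlap in 16.8% of the 4458 tested genes whose length varied, beside 1 of 3 such members. The difference of -3.64 bases is small beside the transcript. The lengths of Syce3 and Hormad1 overlapped between groups (exact permutation p = 1.0 and 0.9).

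The difference in Syce3 was smaller once its short transcript was taken into account. Its counted length is 451.8 bases, and its effective length, the number of positions from which a fragment can arise, was 154.6 to 179.8 bases in libraries labelled DKO and 204.9 to 227.3 bases in those labelled WT. With an offset for the effective lengths, the log2 fold change of Syce3 was -0.15 and no longer passed the test (edgeR adjusted p = 0.306), while Sycp3 stood at 0.72 (adjusted p = 0.0269) and Tex12 at 0.67 (adjusted p = 0.0376). Hormad1 had a log2 fold change of 0.55, close to the 0.54 without the offset, just outside the threshold (adjusted p = 0.0503). With that offset 2 members passed, beside 9.71% of all tested genes.

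Members also differed by the base composition of their transcripts. Sycp1, Sycp2, Sycp3, Tex12 and Hormad1 had a GC content of 34.6% to 37.4%, and all 5 fell in the lowest of 10 equal classes of tested genes by GC. Syce1, Syce2, Syce3, Hormad2 and Trip13 had 45.1% to 53.7%. Over all genes the median log2 fold change went down from 0.29 in the lowest class, where 23.7% of genes were called higher and 0.534% lower, to -0.23 in the highest, where 0% were called higher and 13.8% lower. The 159 other tested genes inside the GC range of these 5 members had a median log2 fold change of 0.36 (quartiles 0.22 and 0.51), and 31.4% of them were called higher. The 5 members had a median of 0.54, and 3 were called.

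**Figure D2:**
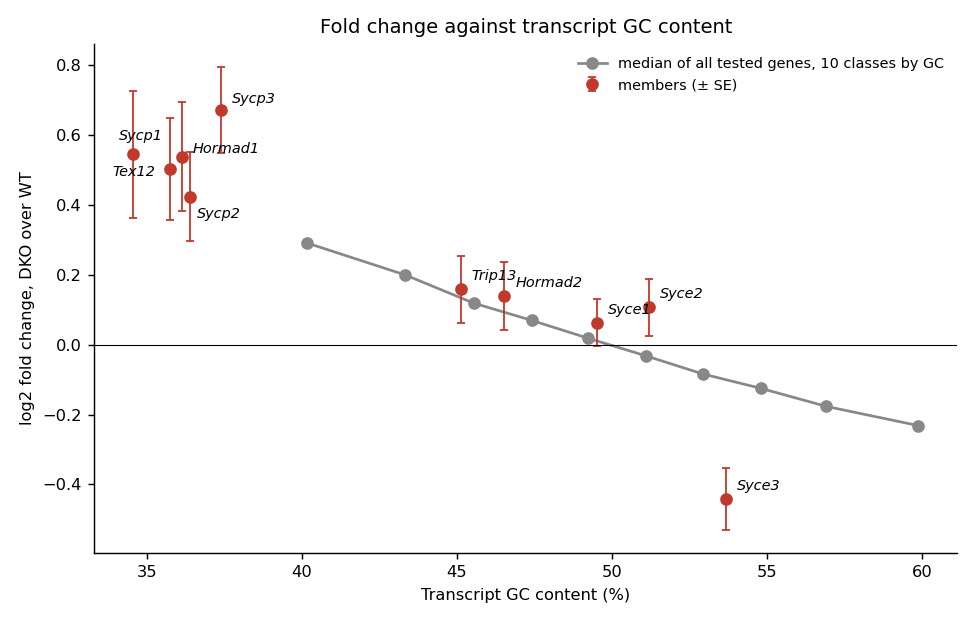
Log2 fold change (labelled DKO over labelled WT, ± SE) of each member against the GC content of its transcript in percent, with the median of all tested genes in 10 GC classes as a grey line. The 5 members at 34.6% to 37.4% GC are the 5 with log2 fold changes of 0.42 or more.

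When the smooth trends of each library on transcript length and GC content were removed, Sycp3 was the only member that passed the test, at a log2 fold change of 0.35 (edgeR, SE 0.0685, adjusted p = 0.0295). Tex12 stood at 0.25 (adjusted p = 0.233), Hormad1 at 0.12 (adjusted p = 0.489), Sycp1 at 0.04 (adjusted p = 0.863), Sycp2 at -0.04 (adjusted p = 0.792) and Syce3 at -0.10 (adjusted p = 0.530). That is 1 of 10 members, beside 3.5% of all genes tested with those trends removed. The median of the members was then 0.07, with 8 of 10 above 0.

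**Figure D3:**
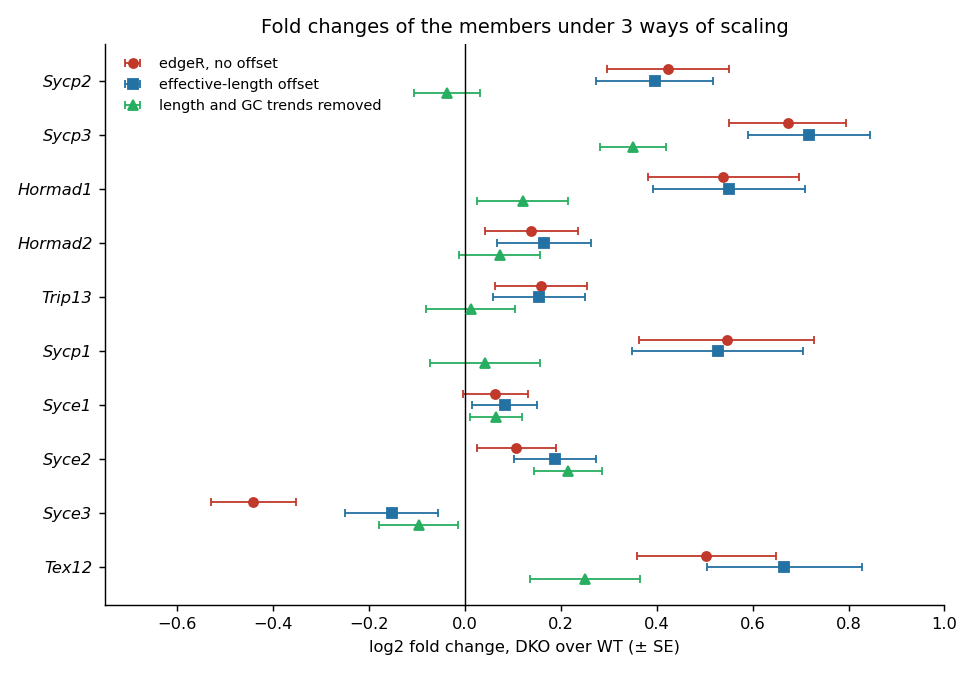
Log2 fold change (labelled DKO over labelled WT) ± SE of each member from edgeR on the counts, with an offset for effective length, and with length and GC trends removed. Sycp3 stays right of 0 in all 3, Syce3 moves from -0.44 towards 0, and Sycp1, Sycp2, Sycp3, Tex12 and Hormad1 all lie closer to 0 when length and GC trends are removed.

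Levels of some members followed the fragment length of the library inside a group, but only Sycp1 and Sycp2 did so in both groups. Averaged over the 10 members, the log2 CPM relative to the mean of each gene was 0.286, 0.114 and -0.0041 in the 3 libraries labelled DKO, which had mean fragments of 317.4, 288.8 and 275.5 bases. In libraries labelled WT it was -0.0637, -0.273 and -0.0590 at 257.9, 230.4 and 245.7 bases, which is not the order of the fragment lengths. The first library labelled DKO was thus the highest and the second labelled WT the lowest on both measures. Sycp1, Sycp2, Sycp3, Tex12, Hormad1 and Hormad2 kept the order of the fragment lengths in libraries labelled DKO (6 of 10 members, beside 23.2% of all tested genes). Sycp1, Sycp2, Syce2 and Syce3 kept it in libraries labelled WT (4 of 10, beside 25.7%), and Sycp1 and Sycp2 kept it in both (beside 9.39%). With fragment length as a covariate 0 members passed the edgeR test, beside 0.00584% of all tested genes. In that fit 1 member had an unadjusted p under 0.05, beside 542 of 17110 genes. Its log2 fold changes were 0.16 (SE 0.149) for Sycp3, 0.10 (SE 0.236) for Tex12, -0.23 (SE 0.161) for Hormad1 and -0.44 (SE 0.157) for Syce3. The part of fragment length in the members' differences was not tested further.

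**Figure D4:**
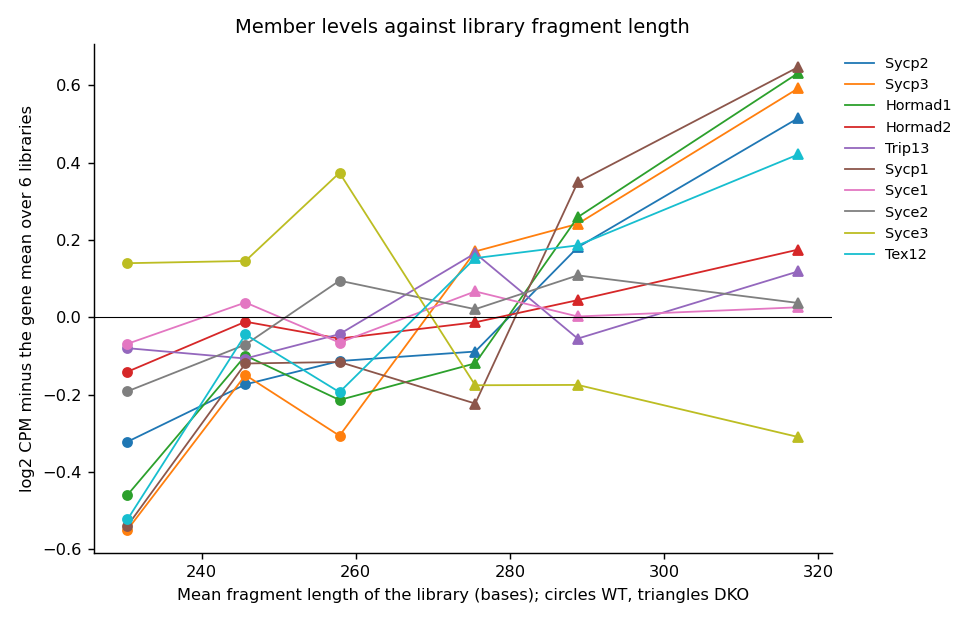
Log2 CPM of each member minus its mean over the 6 libraries, against the mean fragment length of the library in bases; circles are libraries labelled WT and triangles those labelled DKO. For 6 of the 10 members the highest point is the library with a mean fragment of 317.4 bases, and Syce3 lies lower in the libraries labelled DKO.

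Other genes of meiotic chromosome structure were listed by role, and 42 of 45 matched the tables and were tested. Of these, 8 passed, 7 higher and 1 lower, which is 19.0% beside 10.8% of all tested genes. Their median log2 fold change was 0.14. In edgeR fits without 1 library, 0 passed without the first labelled DKO (beside 0.0643% of all tested genes), the second labelled WT (0.0747%) or the third labelled WT (0.0402%). In those fits 12, 15 and 14 had an unadjusted p under 0.05, beside 3571 of 17097, 3793 of 17403 and 4326 of 17431 genes. The count was 1 without the second labelled DKO (beside 3.83%), 4 without the first labelled WT (11.7%) and 14 without the third labelled DKO (17.7%). The remaining central element gene Six6os1 (listed as 4930447C04Rik) rose with a log2 fold change of 0.67 (edgeR, SE 0.141, adjusted p = 0.0271; 14.6 ± 2.57 against 9.16 ± 1.32 CPM), as large as that of Sycp3. Its transcript has 34.5% GC, close to the 34.6% of Sycp1. The related gene Syce1l stood at -0.0029.

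Cohesins, the ring complexes on which the axis is built, had a median log2 fold change of 0.32 and all 7 were above 0. Only Rad21, the general kleisin subunit, passed in edgeR (beside 10.8% of all tested genes), and 3 passed in DESeq2 (beside 17.2%). Rad21 had a log2 fold change of 0.32 (edgeR adjusted p = 0.0417), at 99.3 ± 10.6 against 79.3 ± 5.02 CPM. The meiotic kleisin Rec8 stood at 0.15 in the same edgeR fit (adjusted p = 0.187). It was the one gene of these lists that passed once length and GC trends were removed, beside 3.5% of all genes tested. The cohesin median was then 0.09, with 6 of 7 above 0. None of the 6 tested break formation factors passed in edgeR or in DESeq2 (median 0.07, or 0.0040 with length and GC trends removed). At an unadjusted p under 0.05 in edgeR there were 0 of the 6, beside 5428 of 17110 tested genes. Of 9 tested genes in the list of crossover factors, 3 passed in edgeR and 5 in DESeq2, beside 10.8% and 17.2% of all tested genes. Their median was 0.21, and 0.0057 with length and GC trends removed. Tex11, a crossover regulator, had a log2 fold change of 0.35 (adjusted p = 0.0385 in edgeR) and Cntd1, needed for crossover designation, one of 0.28 (adjusted p = 0.0464). Fkbp6, in the same list but a chaperone needed for spermatocyte progression, was lower at -0.37 (adjusted p = 0.0358).

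Telomere attachment factors, which tether chromosome ends to the nuclear envelope for pairing, had a median of 0.25, or 0.13 with length and GC trends removed. In edgeR on the counts 3 of 7 passed, beside 10.8% of all tested genes. Terb2 (listed as 4933406J08Rik) had a log2 fold change of 0.49 (edgeR adjusted p = 0.0447; 6.51 ± 1.01 against 4.63 ± 0.171 CPM). Spdya stood at 0.32 (adjusted p = 0.0436) and its kinase partner Cdk2 at 0.25 (adjusted p = 0.0394). None of 11 genes that signal with or are bound by the HORMA proteins, such as Atr and Brca1, passed in edgeR. Their median was 0.06, or -0.09 with length and GC trends removed, and 1 passed in DESeq2 (beside 17.2% of all tested genes). At an unadjusted p under 0.05 in edgeR there were 2 of the 11, beside 5428 of 17110 tested genes. By base composition, 4 of the 7 genes called higher in these lists were in the lowest GC class, which held 12 of the 42 tested.

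**Figure D5:**
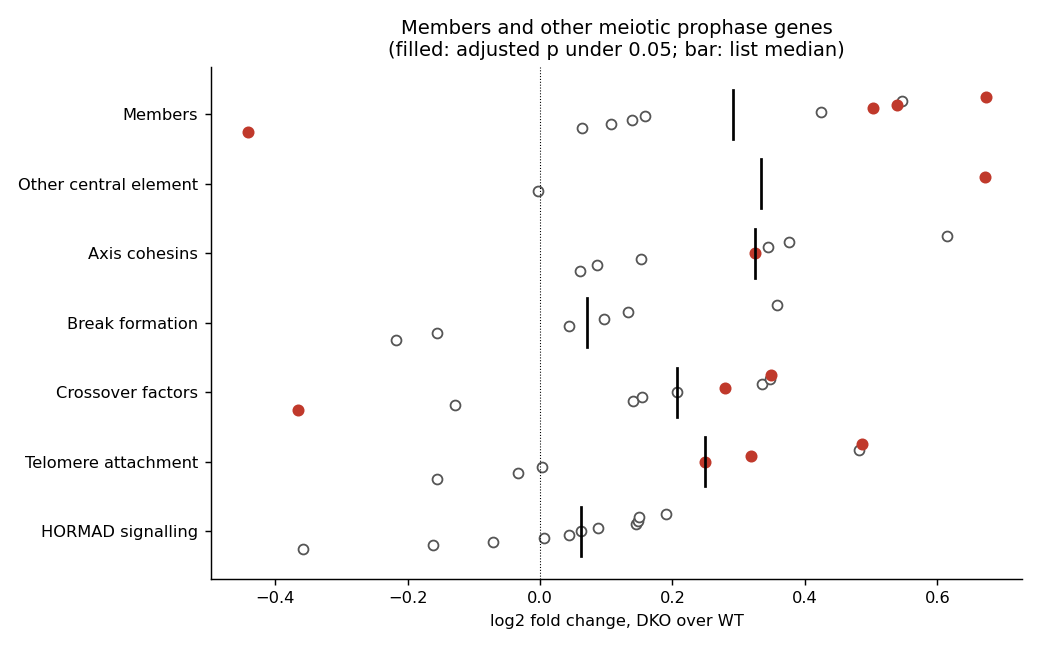
Log2 fold change (labelled DKO over labelled WT) of the 10 members and of 42 other meiotic genes by role; filled points had an adjusted p under 0.05 in edgeR and the bar is the median of each list. All 7 cohesins, 5 of 7 telomere attachment factors, 8 of 11 HORMAD signalling genes and 4 of 6 break formation factors lie right of 0.

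Markers of the cells in a testis were read beside the members, and 12 of 83 tested markers passed (14.5%, beside 10.8% of all tested genes), 6 in each direction. The count was 20 without the third library labelled DKO (beside 17.7% of all tested genes), 6 without the second labelled DKO (3.83%) and 2 without the first labelled DKO (0.0643%). It was 18 without the first labelled WT (5 higher and 13 lower, beside 11.7%), 1 without the second labelled WT (0.0747%) and 0 without the third labelled WT (0.0402%). In the last fit 26 markers had an unadjusted p under 0.05, beside 4326 of 17431 genes. The markers listed for early prophase summed to 644 to 772 CPM in libraries labelled DKO and 552 to 623 CPM in those labelled WT, without overlap. A sum is weighted to its most abundant genes, and whether each listed gene is limited to early prophase was not tested. Taken singly, 35.9% of all tested genes did not overlap in CPM. The 12 tested early prophase markers had a median log2 fold change of 0.29, with 10 above 0 and 2 below. Of these 3 passed, all higher: Rad51ap2 at 0.51 (edgeR adjusted p = 0.0363), Meioc (listed as Gm1564) at 0.50 (adjusted p = 0.0429) and Hsf2bp at 0.29 (adjusted p = 0.0373). With length and GC trends removed, 0 of the 12 passed in edgeR and their median was 0.08. At an unadjusted p under 0.05 in that fit there was 1 of the 12, beside 3679 of 16840 genes. In DESeq2 on the counts 5 of the 12 passed, beside 17.2% of all tested genes. Transcripts of Rad51ap2 and Meioc have 37.5% and 38.5% GC, in the lowest GC class. The members themselves summed to 1074 to 1394 against 903 to 1039 CPM. Markers of pachytene and later spermatocytes summed to 8685 to 9158 against 8526 to 9011 CPM, which overlapped, and 2 of 15 passed, Pou5f2 at 0.30 (adjusted p = 0.0343) and Tdrd5 at 0.35 (adjusted p = 0.0483). The 15 had a median of 0.06, with 11 above 0 and 4 below.

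Spermatogonial markers summed to 171 to 178 against 165 to 180 CPM with a median log2 fold change of -0.06. Of these, 0 of 13 passed in edgeR (1 at an unadjusted p under 0.05, beside 5428 of 17110 tested genes) or in DESeq2. Over all tested genes, 10.8% passed in edgeR and 17.2% in DESeq2. Spermatid markers summed to 21108 to 25341 against 22570 to 25445 CPM, with Akap4 at 0.35 (edgeR adjusted p = 0.0341) and Gapdhs at -0.43 (adjusted p = 0.04997) the 2 of 14 that passed and a median of 0.0035. Sertoli markers summed to 1437 to 1734 against 1631 to 1933 CPM. Their median was -0.15, 10 of 13 were below 0 and 3 passed, Defb19 at -0.97 (adjusted p = 0.0121), Rhox5 at -0.44 (adjusted p = 0.0307) and Cldn11 at -0.30 (adjusted p = 0.0358). Leydig markers summed to 425 to 614 against 587 to 1109 CPM, with a median of -0.48 and 7 of 8 below 0. Of these 2 passed in edgeR, the cholesterol transporter Star at -0.79 (adjusted p = 0.0225) and the hormone gene Insl3 at -1.12 (adjusted p = 0.0358). Insl3 had 186 ± 71.3 against 403 ± 159 CPM. It did not pass in DESeq2, in either limma fit, with the effective-length offset or with length and GC trends removed. Star passed in each of those fits. Markers of myoid cells, endothelium and macrophages summed to 120.0 to 139 against 132 to 180.4 CPM, with a median of -0.30 and 7 of 8 below 0, and 0 of 8 passed in edgeR (4 at an unadjusted p under 0.05) while 2 passed in DESeq2. With length and GC trends removed, the Sertoli, Leydig and myoid, endothelial and macrophage medians were -0.08, -0.51 and -0.27. No marker was at 0 in all libraries. The part of cell composition in the members' differences was not tested.

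The genes whose levels over the 6 libraries were most like the mean pattern of the members were Gcc2 and Senp7 (Pearson r 0.999 each), Aftph (0.999), Rbm26 (0.998) and Stk17b (0.998). Over the same 6 libraries, 1152 of 15069 compared genes (7.64%) had r above 0.95, so such a likeness was common. None of the 5 passed the edgeR test, with log2 fold changes of 0.16 to 0.36.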

How the data were processed

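Whole-testis RNA of 3 libraries labelled DKO and 3 labelled WT was sequenced after Trizol and column extraction and Illumina library preparation, per the labels' protocols. Per the file headers, the deposited expected counts are RSEM estimates per gene and the deposited TPM values are scaled by effective length. The submitters' processing notes name STAR 2.7.0f, RSEM 1.2.31, DESeq2 1.12.3 and the build mm10, with no role or order. Strand handling is not given in the sources used here. Of the expected counts, 93.2% were whole within 0.005.

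Counts were rounded, filtered with filterByExpr, scaled by TMM and compared by the edgeR 4.0.16 quasi-likelihood test in R 4.3.3 on genotype alone. All 6 libraries entered the fit. P-values were adjusted over all 17110 tested genes, and genes under 0.05 were called. SE is the absolute log2 fold change over the square root of F. The mean fragment length of a library was taken, over genes above 3000 bases, as the median gap between length and effective length, plus 1. Single values were compared by exact two-sided permutation tests. Groups came from the genotype labels, and replicates were numbered in order of deposition, which pairs nothing. Alternatives used other scalings and filters, DESeq2 1.42.0, limma 3.58.1 on log2(TPM + 1) and log2(TPM + 0.1), offsets, a fragment length covariate, thinning and each library left out. Offsets for trends came from mgcv 1.9.3, and removing length and GC trends together was chosen after seeing the data. The edgeR script was tested on simulated data. GC content was found for 98.4% of tested genes from GENCODE transcripts with the same RefSeq accessions. Depth was 26753721 to 67131103 expected counts per library.

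Members, lists and motifs were chosen with earlier results of these data known. The genes named are the members, called genes of the pathway lists, up to 3 called genes per marker list by smallest p, the 5 genes most like the members (average log2 CPM of at least 0), Abcc5 and Abcc12; Chpt1, Syce1l and Rec8 were added after their values were seen, and Atr and Brca1 only as examples of a list. Of the listed genes, Ankrd31, Shoc1, Rnf212 and Meiosin were not matched, and Nanos3 did not pass the filter. FPKM values were not used.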

Additional observations from a re-analysis of the deposited data

How the results depend on the processing

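The count of 4 members was 3 with DESeq2 size factors, with the length trend removed and with thinning (beside 11.1%, 10.2% and 11.3% of all tested genes), 4 with a mean count of at least 50 (2042 of 14617 genes) and with DESeq2 (17.2%), and 6 with no count filter (2321 of 21125 genes). It was 2 with the effective-length offset (9.71%), 2 with limma on log2(TPM + 1) (4.3%) and 2 on log2(TPM + 0.1) (5.53%), 0 with the fragment length covariate and 1 with length and GC trends removed; the cause was not tested. The count of all called genes (1856) was 2943 with DESeq2, 735 and 947 with limma at pseudocounts 1 and 0.1, 1 with the fragment length covariate (542 at an unadjusted p under 0.05) and 589 with length and GC trends removed. The 8 pathway genes called became 14, 1, 2, 0 and 1 in the same 5 fits, and the 12 marker genes became 22, 4, 6, 0 and 5. Leaving out 1 library gave 0 to 6 members, 7 to 3029 genes, 0 to 14 pathway genes and 0 to 20 marker genes. Members with non-overlapping lengths were 1 to 2 with a library left out, beside 22.8% to 28.8% of genes with a varying length. Fold changes turned negative with the fragment length covariate for Sycp1 (-0.37), Sycp2 (-0.19), Syce2 (-0.034), Hormad1 (-0.23) and Hormad2 (-0.071), and with length and GC trends removed for Sycp2 (-0.037). Over the 11 alternatives with all libraries, Sycp3 passed in 10, Tex12 in 8, Syce3 in 5, Hormad1 in 3, Sycp2 in 3 and Sycp1 in 1. No paired analysis was possible because the replicate numbers follow deposition order and the labels pair no libraries. Tex12 had the fewest counts of the members, 112 to 366 per library.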
